A study of Mus musculus with 18 samples.

Results

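The genes described here build and sulfate glycosaminoglycans, the long sugar chains of the extracellular matrix. They were taken by gene symbol from a fixed list of 39 enzymes, and all 39 were found among the 57180 genes of the count table. All 39 also passed the filter on low counts that left 15832 genes for testing. The cells were smooth muscle cells isolated from the thoracic aorta of C57BL/6 mice and kept in culture. They had received an siRNA against Itgav, the gene of the integrin αv chain, or a scramble siRNA. Each was then stimulated with TGF-β, stimulated with PDGF-BB or left unstimulated. The 6 groups are therefore Itgav siRNA with TGF-β, scramble with TGF-β, Itgav siRNA with PDGF-BB, scramble with PDGF-BB, Itgav siRNA unstimulated and scramble unstimulated, with 3 libraries each. Every group thus went through an siRNA transfection, and untransfected cells were not analysed here. No sequence or number of siRNAs, no dose and no time of stimulation is given in the sources used here. Nor do the labels say whether the 3 libraries of a group came from separate cultures or animals, so the p-values measure the spread between libraries, which may be technical.

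Most glycosaminoglycans hang on a core protein through a short linkage chain that begins with xylose. From that linkage the chain grows either into chondroitin or dermatan sulfate or into heparan sulfate, and sulfotransferases then decorate it using the activated sulfate donor PAPS. Hyaluronan is different: it is spun out at the plasma membrane, without a core protein and without sulfate. In the artery wall smooth muscle cells are the main makers of versican, biglycan and perlecan, the proteoglycans that carry these chains, and of hyaluronan.

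Libraries held between 17705072 and 21592916 counts. Levels below are CPM, the usual scaling of a gene's counts by the library total, here with that total adjusted by the TMM factor of edgeR. A gene is said to have risen or fallen where the quasi-likelihood test of edgeR gave an adjusted p under 0.05 over all 15832 genes tested. Itgav, the targeted gene, had 14.1 to 29.7 CPM over the 9 Itgav siRNA libraries and 300.2 to 553 CPM over the 9 scramble libraries. All 8 smooth muscle markers were tested, and their summed level ran from 480.2 to 8067 CPM over the 18 libraries. The summed endothelial markers ran from 55.6 to 109 CPM, the macrophage markers from 7.35 to 20.6 CPM, the adventitial fibroblast markers from 32.2 to 156 CPM and the mesothelial markers from 25.2 to 219 CPM. No marker on these 5 lists was at 0 in all 18 libraries.

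Sets of markers moved with the groups. The smooth muscle sum was 3509 to 3686 CPM with Itgav siRNA and TGF-β, against 7375 to 8067 CPM with scramble and TGF-β. It was 480.2 to 508.5 CPM with Itgav siRNA and PDGF-BB, against 1301 to 1366 CPM with scramble and PDGF-BB, and 1195 to 1342 CPM in Itgav siRNA unstimulated cells, against 2581 to 2647 CPM in scramble unstimulated cells. Chondrocyte markers summed to 663 to 712 CPM in scramble cells with TGF-β and to 139.9 to 153 CPM in scramble unstimulated cells. Of the 6, Col2a1 averaged 457 CPM with scramble and TGF-β and 67.1 CPM in scramble unstimulated cells, while Matn1 and Col9a1 did not pass the low-count filter and were at 0 in all 3 scramble unstimulated libraries. With Itgav siRNA the chondrocyte sum was 465.4 to 491.5 CPM under TGF-β and 127.4 to 137.7 CPM unstimulated, both below scramble. Under PDGF-BB it lay above scramble, at 105.8 to 109.9 CPM with Itgav siRNA against 83.1 to 86.9 CPM with scramble. The mesothelial sum was 25.2 to 30.9 CPM with Itgav siRNA and TGF-β against 62.1 to 64.3 CPM with scramble and TGF-β, 81.3 to 89.8 CPM with Itgav siRNA and PDGF-BB against 193.5 to 219 CPM with scramble and PDGF-BB, and 90.5 to 93 CPM with Itgav siRNA against 154.5 to 165 CPM with scramble unstimulated. The adventitial fibroblast sum was 32.2 to 36.3 CPM with Itgav siRNA and TGF-β against 37.6 to 38.6 CPM with scramble and TGF-β, 120.2 to 128.5 CPM with Itgav siRNA and PDGF-BB against 148 to 156 CPM with scramble and PDGF-BB, and 89.2 to 89.8 CPM with Itgav siRNA against 95.6 to 98.2 CPM with scramble unstimulated. Neither sum overlapped between Itgav siRNA and scramble cells in any medium, and both were higher with PDGF-BB than unstimulated in scramble cells. Single adventitial fibroblast markers did not all follow their sum. Of the 7, 3 rose and 1 fell with Itgav siRNA under TGF-β, 4 rose and 1 fell under PDGF-BB, and 5 rose and 1 fell unstimulated. With PDGF-BB in scramble cells 3 of these markers rose and 3 fell. Endothelial markers summed to 66 to 79.4 CPM with Itgav siRNA and PDGF-BB, against 85.2 to 93.9 CPM with scramble and PDGF-BB. Unstimulated they summed to 55.6 to 69.4 CPM with Itgav siRNA and 71.1 to 84.9 CPM with scramble, and with TGF-β the groups overlapped. The macrophage sum was 9.44 to 12.1 CPM with Itgav siRNA and TGF-β, against 7.35 to 8.6 CPM with scramble and TGF-β. In the other media the macrophage sums of Itgav siRNA and scramble cells overlapped. Of 12 interferon response genes, 12 rose with Itgav siRNA in each medium. Their sum was 837 to 919 CPM with Itgav siRNA and TGF-β, against 128.8 to 157 CPM with scramble and TGF-β, and 6878 to 7892 CPM in Itgav siRNA unstimulated cells, against 212 to 435 CPM in scramble unstimulated cells. With PDGF-BB it was 4302 to 6520 CPM with Itgav siRNA and 207 to 243 CPM with scramble. The part of these markers in the differences given below was not tested, and in bulk RNA fewer cells of a type cannot be told apart from less RNA per cell.

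Together the 39 genes took 0.467 to 0.477% of the counts with Itgav siRNA and TGF-β and 0.435 to 0.448% with scramble and TGF-β. Their share was 0.307 to 0.320% with Itgav siRNA and PDGF-BB and 0.282 to 0.292% with scramble and PDGF-BB. In unstimulated cells it was 0.333 to 0.338% with Itgav siRNA and 0.319 to 0.332% with scramble. Both TGF-β groups lay above the other 4 groups without overlap.

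Per unit of transcript length, the most abundant products in scramble unstimulated cells were the heparan-editing sulfatases. Sulf1 averaged 309.5 ± 18 TPM (counts per transcript length, scaled to the same sum in every library; SD, n = 3) there and Sulf2 230.5 ± 5.32 TPM. Hs6st2, a heparan 6-O-sulfotransferase, followed at 139 ± 6.2 TPM, and Ugdh, which makes UDP-glucuronate, at 109 ± 6.47 TPM. At the other end stood Has1, a hyaluronan synthase, at 0.0804 ± 0.0342 TPM, then Has2 at 0.178 ± 0.0617 TPM and Xylt1 at 0.528 ± 0.102 TPM. With TGF-β in scramble cells Papss2, a PAPS synthase, was second to Sulf1 at 253 ± 4.79 TPM, against 51.9 ± 2.3 TPM in scramble unstimulated cells, where it stood at rank 10. Chst3 rested on a short and a long transcript whose shares varied widely between libraries at low counts, so its per-length level is less certain than its CPM.

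**Figure D1:**
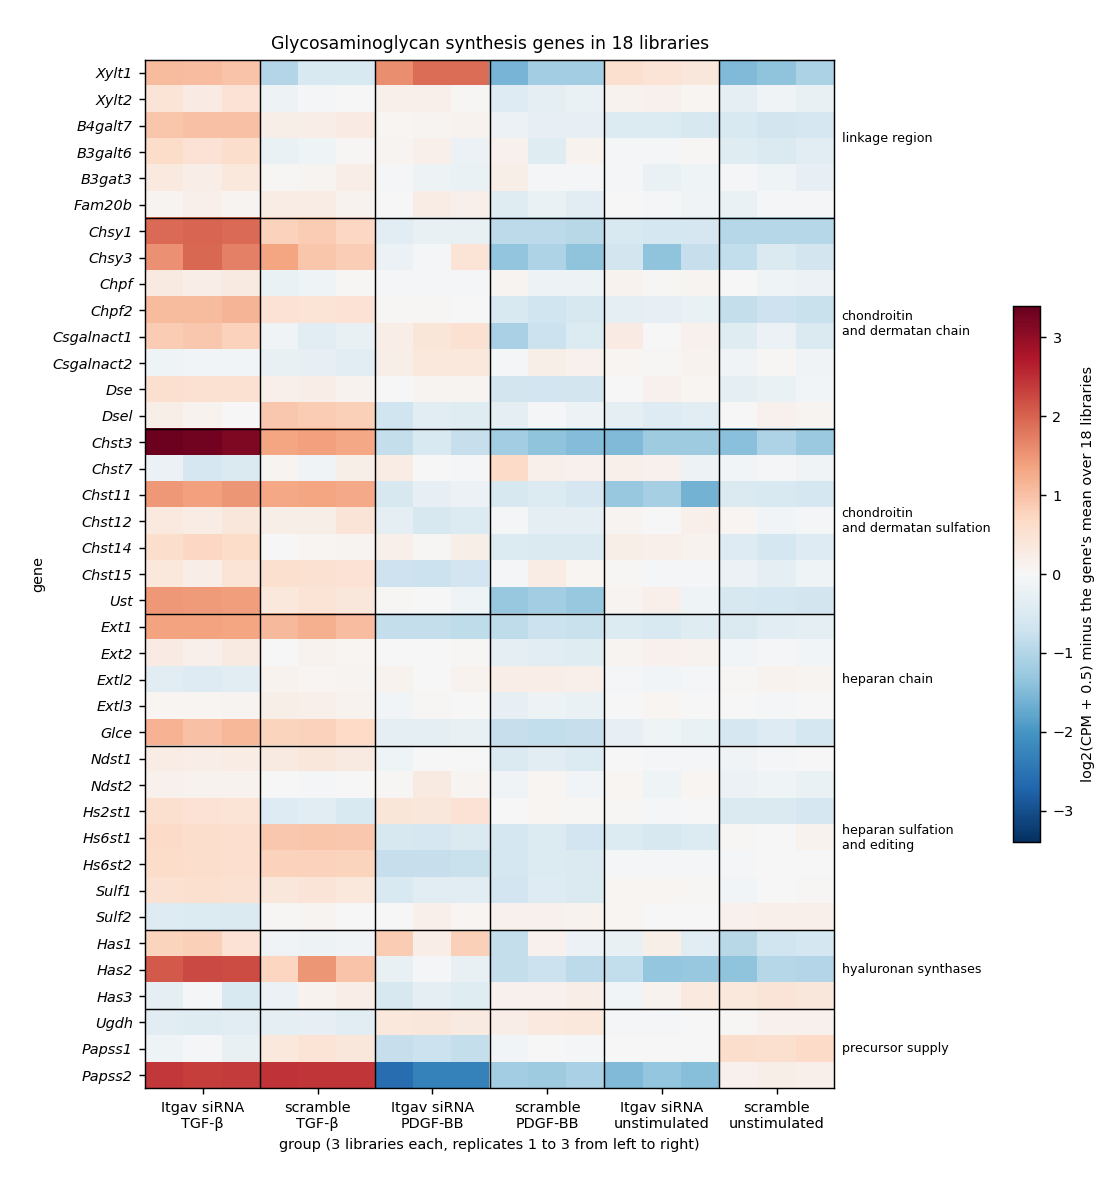
Levels of the 39 genes in the 18 libraries, as log2(CPM + 0.5) minus each gene's mean, with genes grouped by role down the page and the 6 groups across it. The TGF-β columns are the reddest for Chsy1, Chst3, Chst11, Ext1, Glce, Has2 and Papss2, and Xylt1 is highest in the 3 Itgav siRNA groups.

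The promoters of 4 of the genes that rose most with TGF-β, which supply sulfate or build and sulfate chondroitin, are printed to show what sequence lies before their starts. Each is the 250 bases upstream of an annotated start in RefSeq (GRCm38.p6), written 5′ to 3′ on the gene's strand. Capitals mark CAGAC, the Smad box bound by the TGF-β effectors Smad3 and Smad4, and the GC-rich 5-letter motifs GGCGC and GGCCG that Smads can also bind, each searched on both strands, with overlapping matches merged. Chst3 is at chr10:60219261-60219510 (minus strand), Chst11 at chr10:82985247-82985496 (plus strand), Chsy1 at chr7:66109242-66109491 (plus strand) and Papss2 at chr19:32595465-32595714 (plus strand).
Chst3: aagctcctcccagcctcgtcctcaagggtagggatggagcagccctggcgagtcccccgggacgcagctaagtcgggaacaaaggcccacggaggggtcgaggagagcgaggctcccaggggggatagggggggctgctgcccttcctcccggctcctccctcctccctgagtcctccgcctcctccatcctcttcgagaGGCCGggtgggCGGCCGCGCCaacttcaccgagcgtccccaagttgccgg
Chst11: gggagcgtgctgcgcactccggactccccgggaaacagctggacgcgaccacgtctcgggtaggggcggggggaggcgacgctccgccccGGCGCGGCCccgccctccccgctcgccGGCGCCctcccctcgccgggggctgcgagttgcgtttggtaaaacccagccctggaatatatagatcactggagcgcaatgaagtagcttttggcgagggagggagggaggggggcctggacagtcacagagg
Chsy1: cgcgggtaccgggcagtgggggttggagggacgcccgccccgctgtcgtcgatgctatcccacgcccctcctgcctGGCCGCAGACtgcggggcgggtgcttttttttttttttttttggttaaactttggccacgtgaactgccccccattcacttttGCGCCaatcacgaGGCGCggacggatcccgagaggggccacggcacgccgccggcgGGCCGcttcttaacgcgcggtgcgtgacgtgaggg
Papss2: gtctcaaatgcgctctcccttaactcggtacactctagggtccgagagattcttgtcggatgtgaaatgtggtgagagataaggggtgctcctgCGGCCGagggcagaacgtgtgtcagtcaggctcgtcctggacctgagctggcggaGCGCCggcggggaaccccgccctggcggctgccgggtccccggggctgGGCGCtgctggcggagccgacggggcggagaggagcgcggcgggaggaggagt

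Of these windows, the one of Chsy1 held CAGAC, its first base 169 bases before the start. Papss2 has a second RefSeq start, whose window (chr19:32619755-32620004, not printed) held CAGAC, read on the other strand, with its first base 45 bases before that start. RefSeq promoters were matched for 30 of the 39 genes, with 38 entries. For each motif a gene was counted where any of its entries held a match, while the share of all promoters was taken over single entries. The units are therefore unlike, and a gene with more than 1 entry had more sequence in which to match. CAGAC was in 16 of the 30, against 42.2% of all 32851 promoters. GGCGC was in 22 of the 30 and in 32% of all promoters, and GGCCG in 21 of the 30 and in 30.4% of all. The 38 entries had a median GC content of 64.6%, against 52.4% over all promoters, so GC-rich letters are more frequent in them whatever the motif. TGANTCA, the AP-1 motif, and the interferon-stimulated response element, searched as a pair of GAAA boxes with NN between them, were each found in 1 of the 30, Csgalnact2, and in 6.75% and 2.98% of all promoters. A match is a run of letters and was not tested as a binding site.

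TGF-β raised most of these genes in scramble cells. Against scramble unstimulated cells, 27 of the 39 rose and 4 fell, while 23.4% of all genes tested rose and 24.8% fell. The median log2 fold change of the 39 was 0.39, against -0.01 over all genes tested. At least 2-fold rises were found for 11 of the 39 and for 5.5% of all genes, and no member fell that far, against 6.8% of all genes. With PDGF-BB in scramble cells 9 of the 39 rose and 16 fell, where 16.9% of all genes rose and 19.2% fell. The median log2 fold change with PDGF-BB was -0.09, against 0.01 over all genes, no member rose 2-fold or more, against 2.84% of all genes, and Papss2 alone fell that far, against 2.76% of all genes. These comparisons share the scramble unstimulated libraries. Set directly against PDGF-BB in scramble cells, TGF-β gave 27 members higher and 3 lower, where 28% of all genes were higher and 29% lower. The log2 fold change of TGF-β over PDGF-BB was 3.62 ± 0.06 for Papss2, 2.99 ± 0.13 for Chst3, 2.88 ± 0.26 for Chsy3, 2.64 ± 0.28 for Has2 and 1.91 ± 0.05 for Ext1 (edgeR adjusted p = 7.03e-22, 6.49e-15, 4.37e-09, 3.51e-08 and 1.37e-18).

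**Figure D2:**
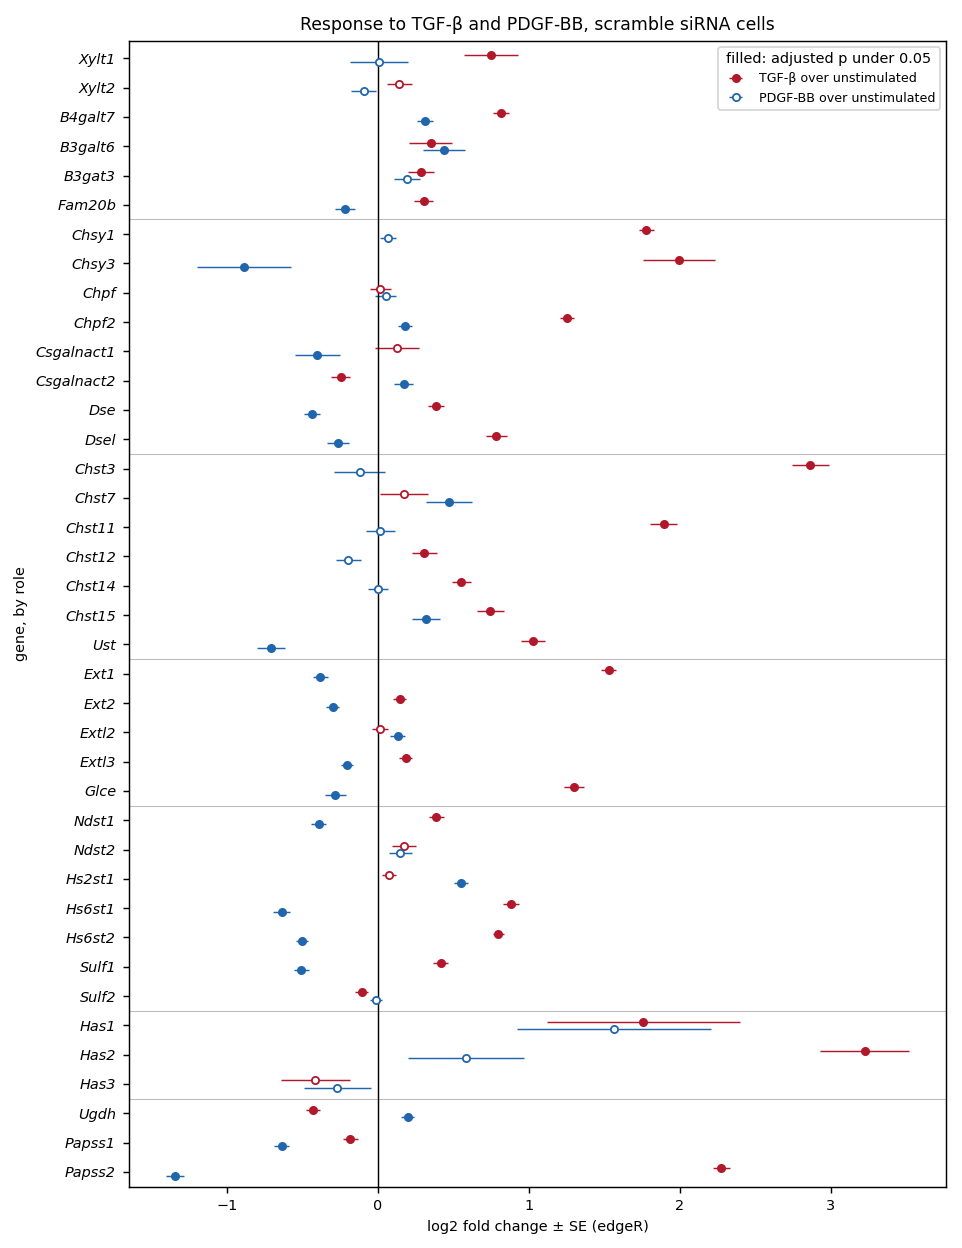
Log2 fold change with its SE for each of the 39 genes in scramble cells, for TGF-β over unstimulated (red) and PDGF-BB over unstimulated (blue), with filled points for adjusted p under 0.05. Red points lie right of 0 for most genes and reach 3.23 for Has2, 2.87 for Chst3 and 2.28 for Papss2, while blue points run from -1.35 for Papss2 to 1.57 for Has1, whose point is open.

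Itgav siRNA raised more of these genes than it lowered in every medium. With TGF-β, 21 of the 39 rose and 7 fell, where 24.1% of all genes rose and 24.3% fell. With PDGF-BB, 21 rose and 8 fell, against 29.4% and 29.9% of all genes. In unstimulated cells 15 rose and 8 fell, against 25.9% and 27.5% of all genes. The median log2 fold changes of the 39 were 0.18 with TGF-β, 0.20 with PDGF-BB and 0.08 unstimulated, and over all genes 0.01 in each. Changes of at least 2-fold were 7 up and none down with TGF-β (6.18% and 3.73% of all genes), 6 up and 1 down with PDGF-BB (8.03% and 4.53%), and 2 up and 1 down unstimulated (6.47% and 3.92%), all by the same edgeR test. Rises in all 3 media were found for 12 genes: Xylt1, Xylt2, Chsy1, Chpf2, Csgalnact1, Dse, Chst14, Ust, Ext2, Glce, Hs2st1 and Has1. Of these, Has1 passed the low-count filter only through Itgav siRNA libraries. Dsel, Extl2 and Papss1 fell in all 3 media. A further 5, B4galt7, Chsy3, Csgalnact2, Chst3 and Has2, rose under both stimuli without passing the test in unstimulated cells. How many of all genes showed such patterns across media was not counted, so no share stands beside these numbers of members. B3gat3 passed the test in none of the 3 media, though with the replicate number as a block it fell with the siRNA under PDGF-BB (edgeR adjusted p = 0.0459, against 0.0709 without it). Single libraries mattered for some of these patterns. The fall of Extl2 ended when any of 3 of the 6 libraries was left out with PDGF-BB, and likewise unstimulated, with the highest edgeR adjusted p, 0.164 and 0.0817, without Itgav siRNA PDGF-BB replicate 2 and scramble unstimulated replicate 2. The rise of Csgalnact2 ended without scramble TGF-β replicate 3 (edgeR adjusted p = 0.0638) and without scramble PDGF-BB replicate 1 (edgeR adjusted p = 0.0751).

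**Figure D3:**
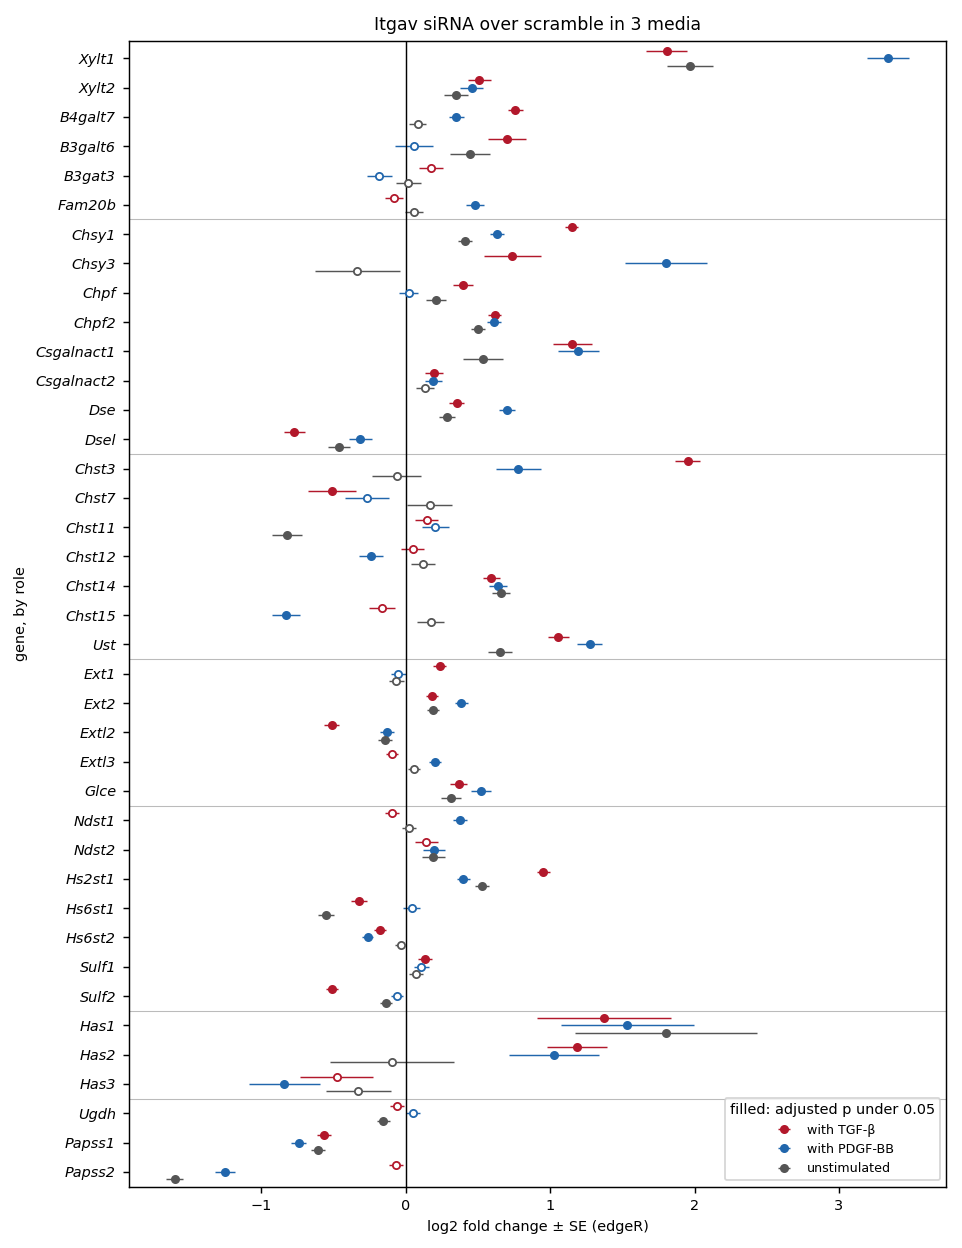
Log2 fold change with its SE for Itgav siRNA over scramble, for each of the 39 genes with TGF-β (red), with PDGF-BB (blue) and unstimulated (grey), with filled points for adjusted p under 0.05. Xylt1 lies furthest right, at 3.34 with PDGF-BB, and Papss2 lies left of -1 with PDGF-BB and unstimulated but near 0 with TGF-β.

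The siRNA effect itself depended on the medium for some genes. Measured as the difference between the siRNA effect with TGF-β and the one in unstimulated cells, 11 of the 39 were more positive and 4 more negative with TGF-β, where 12.2% and 11% of all genes were. For PDGF-BB in the same way, 15 were more positive and 3 more negative, where 9.51% and 9.32% of all genes were. Seen from the other side, TGF-β raised 30 and lowered 6 of the 39 in Itgav siRNA cells, where 27.9% of all genes rose and 29.6% fell, and PDGF-BB raised 14 and lowered 8, where 17.2% rose and 19.2% fell. Of these TGF-β calls, that of Fam20b ended without any of 4 of the 6 libraries. Those of Chpf, Chst7, Chst12, Csgalnact2, Has1 and Papss1 each ended without any of 2, and that of Ext2 without 1. Of the PDGF-BB calls, Extl2 ended without any of 5 libraries, Has1 of 4, Fam20b of 3 and Has3 of 2.

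The counts by role that follow are to be read against the shares of all genes that rose and fell. In scramble cells these were 23.4% and 24.8% with TGF-β and 16.9% and 19.2% with PDGF-BB. With Itgav siRNA they were 24.1% and 24.3% under TGF-β, 29.4% and 29.9% under PDGF-BB, and 25.9% and 27.5% unstimulated. The linkage region is built first in the pathway. Of 6 genes, 5 rose with TGF-β in scramble cells (median log2 fold change 0.33), and with Itgav siRNA 4 rose under TGF-β, 4 under PDGF-BB and 3 in unstimulated cells, with none falling in these 4 comparisons by the edgeR test. With PDGF-BB in scramble cells 2 rose, B4galt7 and B3galt6, and 1 fell, Fam20b. That B3galt6 rise ended without any of 3 of the 6 libraries, and the Fam20b fall without any of 2 (edgeR adjusted p up to 0.0891 and 0.0661). Of the TGF-β rises in scramble cells, that of B3galt6 ended without any of 5 of the 6 libraries (edgeR adjusted p up to 0.173, without scramble TGF-β replicate 3) and that of B3gat3 without scramble unstimulated replicate 3 (edgeR adjusted p = 0.0568). Xylt1 (chr7:117380979-117673580, GRCm38, GENCODE M21), the xylosyltransferase that starts the chain on the core protein, had 14.3, 14.2 and 13.4 CPM with Itgav siRNA and TGF-β, against 3.08, 4.46 and 4.4 CPM with scramble and TGF-β. It had 20.7, 25.9 and 26 CPM with Itgav siRNA and PDGF-BB, against 1.87, 2.63 and 2.64 CPM with scramble and PDGF-BB. Unstimulated, it had 9.82, 9.29 and 8.76 CPM with Itgav siRNA and 2.02, 2.23 and 2.86 CPM with scramble. Every Itgav siRNA library was above every scramble library, and the PDGF-BB libraries were the highest of the siRNA cells and among the lowest of the scramble cells.

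The log2 fold change of Xylt1 with Itgav siRNA was 1.81 ± 0.14 (SE) with TGF-β, 3.34 ± 0.15 with PDGF-BB and 1.97 ± 0.16 unstimulated, which is 3.5-fold, 10.1-fold and 3.92-fold (edgeR adjusted p = 6.47e-10, 2.45e-14 and 6.28e-10). The siRNA effect was larger with PDGF-BB than unstimulated, by a log2 difference of 1.37 ± 0.23 (edgeR adjusted p = 0.000232). TGF-β alone raised Xylt1 in scramble cells by 0.75 ± 0.18, while PDGF-BB alone gave 0.01 ± 0.19 (edgeR adjusted p = 0.00141 and 0.977). Its paralog Xylt2 ranged from 13.4 to 25.8 CPM and rose with Itgav siRNA by 0.35 to 0.51 on the log2 scale.

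B4galt7, which adds the first galactose, had 56, 58.2 and 58.2 CPM with Itgav siRNA and TGF-β, against 33.4, 33.8 and 34.7 CPM with scramble and TGF-β. The values with PDGF-BB were 30.1, 30.5 and 31 CPM with Itgav siRNA and 24.8, 23.4 and 23.5 CPM with scramble, and those unstimulated 20.8, 20.8 and 19.6 CPM with Itgav siRNA and 20, 18.6 and 19.1 CPM with scramble. The groups under either stimulus did not overlap, while the unstimulated ones did. It rose with TGF-β by 0.82 ± 0.055 in scramble cells and by 1.49 ± 0.053 in Itgav siRNA cells, and the siRNA effect was larger with TGF-β than unstimulated by 0.68 ± 0.077 (edgeR adjusted p = 8.61e-07). B3galt6, the next galactosyltransferase, ranged from 5.94 to 13.4 CPM and rose with Itgav siRNA under TGF-β by 0.70 ± 0.13 (edgeR adjusted p = 0.00013). The glucuronosyltransferase B3gat3 ranged from 24.1 to 37.6 CPM and the xylose kinase Fam20b from 89.1 to 142 CPM.

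Of the genes that polymerise chondroitin and dermatan, 5 of 8 rose and 1 fell with TGF-β in scramble cells, and 2 rose and 4 fell with PDGF-BB (medians 0.58 and -0.11). Without scramble PDGF-BB replicate 1, 3 of those 4 falls ended, with edgeR adjusted p of 0.244 for Csgalnact1, 0.0897 for Chsy3 and 0.0591 for Dsel, and Dse was left. The Csgalnact1 and Chsy3 falls each ended without any of 4 of the 6 libraries. The rise of Csgalnact2 with PDGF-BB ended without any of 4 of the 6 libraries (edgeR adjusted p up to 0.142, without scramble PDGF-BB replicate 2). Itgav siRNA raised 7 of the 8 and lowered 1 under TGF-β, raised 6 and lowered 1 under PDGF-BB, and raised 5 and lowered 1 unstimulated. Dsel was the 1 lowered in each medium. The unstimulated rise of Chpf with Itgav siRNA ended without scramble unstimulated replicate 3 (edgeR adjusted p = 0.0717). Chsy1 (chr7:66109515-66173798), a chondroitin synthase, had 255, 266 and 258 CPM with Itgav siRNA and TGF-β, against 116, 124 and 111 CPM with scramble and TGF-β. With PDGF-BB it had 52.5, 56.9 and 56.4 CPM with Itgav siRNA and 36.2, 36 and 35 CPM with scramble, and unstimulated 46.6, 44.4 and 44.9 CPM with Itgav siRNA and 33.9, 34.1 and 34.2 CPM with scramble. In each medium the siRNA libraries lay above the scramble libraries without overlap. TGF-β raised Chsy1 in scramble cells 3.43-fold, a log2 fold change of 1.78 ± 0.048 (edgeR adjusted p = 5.21e-18), and in Itgav siRNA cells 5.73-fold. The siRNA rise was 1.15 ± 0.044 with TGF-β and 0.41 ± 0.05 unstimulated, a difference of 0.74 ± 0.067 (edgeR adjusted p = 3.7e-08).

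Chsy3, a second chondroitin synthase, was much rarer. It had 8.52, 11.3 and 9.52 CPM with Itgav siRNA and TGF-β, against 7.25, 5.38 and 4.98 CPM with scramble and TGF-β. The PDGF-BB values were 2.2, 2.44 and 3.73 CPM with Itgav siRNA and 0.707, 0.978 and 0.694 CPM with scramble, and the unstimulated ones 1.5, 0.703 and 1.3 CPM with Itgav siRNA and 1.24, 1.67 and 1.5 CPM with scramble. The scramble PDGF-BB libraries were among the lowest of all, and the unstimulated groups overlapped. TGF-β raised it by 2.00 ± 0.24 in scramble cells (edgeR adjusted p = 3.34e-07), and Itgav siRNA raised it by 1.80 ± 0.28 with PDGF-BB (edgeR adjusted p = 1.13e-05). The siRNA effect with PDGF-BB exceeded the unstimulated one by 2.14 ± 0.41 (edgeR adjusted p = 0.00095). Its fall with PDGF-BB in scramble cells, a log2 fold change of -0.89 ± 0.31 (edgeR adjusted p = 0.03), was not called without scramble PDGF-BB replicate 1 or 3 or scramble unstimulated replicate 2 or 3, where the edgeR adjusted p was 0.0897, 0.0981, 0.1 and 0.071.

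Chpf2, a partner of the chondroitin synthases, had 214, 211 and 222 CPM with Itgav siRNA and TGF-β and 140.2, 139 and 142 CPM with scramble and TGF-β. It had 104, 103 and 100.006 CPM with Itgav siRNA and PDGF-BB, 70.2, 62.6 and 68.1 CPM with scramble and PDGF-BB, 80.9, 83.4 and 86.1 CPM with Itgav siRNA unstimulated and 56.8, 61 and 59.3 CPM with scramble unstimulated. In every medium the siRNA libraries lay above the scramble ones. Chpf2 rose with TGF-β in scramble cells by 1.25 ± 0.047 and with Itgav siRNA by 0.50 to 0.62 (edgeR adjusted p = 1.07e-15 for TGF-β). Its exons share 2466 bases with Smarcd3 on the opposite strand, which averaged 65.6 CPM with scramble and TGF-β and 22.3 CPM in scramble unstimulated cells. Whether the counting used strand is not stated, and without strand the reads of these 2 genes that lie within the shared bases cannot be told apart. Chpf, the other such partner, ranged from 131 to 190.3 CPM and did not pass the test for either stimulus in scramble cells.

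Csgalnact1 adds the first N-acetylgalactosamine, the step that commits a linkage to chondroitin. It had 15.3, 16.1 and 14.5 CPM with Itgav siRNA and TGF-β, against 7.54, 6.24 and 6.89 CPM with scramble and TGF-β. The PDGF-BB values were 9.68, 11.1 and 12 CPM with Itgav siRNA and 3.59, 4.79 and 5.87 CPM with scramble, and unstimulated it had 10, 8.13 and 9.23 CPM with Itgav siRNA and 6.05, 7.15 and 5.71 CPM with scramble. The siRNA and scramble libraries did not overlap in any medium. The siRNA raised it by 1.15 ± 0.14 with TGF-β, 1.19 ± 0.14 with PDGF-BB and 0.53 ± 0.14 unstimulated (edgeR adjusted p = 2.81e-07, 2.54e-07 and 0.00278). TGF-β alone gave 0.13 ± 0.15 in scramble cells (edgeR adjusted p = 0.501). Its paralog Csgalnact2 ranged from 62.9 to 105 CPM and was the 1 gene of this role that fell with TGF-β in scramble cells, with a log2 fold change of -0.25 (edgeR adjusted p = 0.00255).

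The epimerases that turn chondroitin into dermatan went opposite ways with Itgav siRNA. Dse ranged from 51.9 to 119 CPM and rose in all 3 media, by 0.35 with TGF-β, 0.70 with PDGF-BB and 0.29 unstimulated. Dsel had 51.8, 49.1 and 44.9 CPM with Itgav siRNA and TGF-β, against 85.5, 83.5 and 80 CPM with scramble and TGF-β. It had 28.3, 34.4 and 34.1 CPM with Itgav siRNA and PDGF-BB, against 36.4, 43.7 and 40.2 CPM with scramble and PDGF-BB, and unstimulated 36.5, 33.2 and 35.3 CPM with Itgav siRNA and 45.6, 50.5 and 48.3 CPM with scramble. The siRNA libraries of Dsel lay below the scramble libraries in each medium. Dsel fell with the siRNA, with log2 fold changes of -0.77 ± 0.073 with TGF-β, -0.31 ± 0.078 with PDGF-BB and -0.46 ± 0.077 unstimulated (edgeR adjusted p = 1.09e-08, 0.00155 and 2.83e-05). TGF-β alone raised both in scramble cells, Dse by 0.38 ± 0.053 and Dsel by 0.79 ± 0.073.

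Sulfotransferases of chondroitin and dermatan held some of the widest swings. With TGF-β in scramble cells 6 of 7 rose and none fell (edgeR; median 0.75), and PDGF-BB raised 2 and lowered 1. Both PDGF-BB rises ended when single libraries were left out, that of Chst7 without scramble PDGF-BB replicate 1 or scramble unstimulated replicate 3 (edgeR adjusted p = 0.176 and 0.0564) and that of Chst15 without scramble PDGF-BB replicate 2 (edgeR adjusted p = 0.0708). With the replicate number as a block, Chst12 fell with PDGF-BB as well (edgeR adjusted p = 0.0273, against 0.0678 without it). Itgav siRNA raised 3 and lowered 1 of the 7 with TGF-β, raised 3 and lowered 2 with PDGF-BB, and raised 2 and lowered 1 unstimulated. Of these falls, that of Chst7 with TGF-β ended without Itgav siRNA TGF-β replicate 2 or 3 or scramble TGF-β replicate 3 (edgeR adjusted p = 0.0693, 0.055 and 0.0647), and that of Chst12 with PDGF-BB without Itgav siRNA PDGF-BB replicate 2 or scramble PDGF-BB replicate 1 (edgeR adjusted p = 0.0934 and 0.168). Chst3 (chr10:60181532-60219260), which puts sulfate on the 6-O position of N-acetylgalactosamine, had 57.5, 55.8 and 52.2 CPM with Itgav siRNA and TGF-β, against 14.2, 14.7 and 13.8 CPM with scramble and TGF-β. With PDGF-BB it had 2.79, 3.54 and 2.88 CPM with Itgav siRNA and 2.07, 1.75 and 1.57 CPM with scramble. Unstimulated, it had 1.56, 2.01 and 2.02 CPM with Itgav siRNA and 1.65, 2.28 and 1.94 CPM with scramble. The TGF-β groups stood clear of each other and of the rest, and the unstimulated groups overlapped.

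TGF-β raised Chst3 7.29-fold in scramble cells, by 2.87 ± 0.12 on the log2 scale, and 29.5-fold in Itgav siRNA cells, by 4.88 ± 0.11 (edgeR adjusted p = 1.45e-14 and 1.72e-19). Itgav siRNA raised it by 1.95 ± 0.088 with TGF-β and by 0.78 ± 0.16 with PDGF-BB, with -0.06 ± 0.17 unstimulated (edgeR adjusted p = 4.75e-14, 0.000186 and 0.813). The siRNA effect was larger with TGF-β than unstimulated by 2.01 ± 0.19, or 4.04-fold (edgeR adjusted p = 8.11e-08). For PDGF-BB that difference was 0.84 ± 0.23 (edgeR adjusted p = 0.0141), and it was not called without Itgav siRNA PDGF-BB replicate 2 or scramble unstimulated replicate 2 (edgeR adjusted p = 0.0559 and 0.0631). Chst7, the other chondroitin 6-O-sulfotransferase, ranged from 3.64 to 9.04 CPM, and TGF-β gave 0.17 ± 0.16 in scramble cells (edgeR adjusted p = 0.391).

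Chst11 (chr10:82985498-83195900) puts sulfate on the 4-O position of chondroitin. It had 60.7, 56.5 and 60.9 CPM with Itgav siRNA and TGF-β, against 54.3, 54.4 and 52.4 CPM with scramble and TGF-β. The PDGF-BB values were 14.4, 17.5 and 18.7 CPM with Itgav siRNA and 14.4, 15.2 and 14.2 CPM with scramble, and the unstimulated ones 8.42, 9.44 and 6.63 CPM with Itgav siRNA and 14.9, 14.6 and 13.8 CPM with scramble. Unstimulated siRNA cells were the lowest group, below scramble without overlap. TGF-β raised it by 1.89 ± 0.087 in scramble cells and by 2.86 ± 0.095 in Itgav siRNA cells (edgeR adjusted p = 4.65e-14 and 6.27e-17). The siRNA lowered it unstimulated, with a log2 fold change of -0.82 ± 0.11 (edgeR adjusted p = 8.72e-07) and gave 0.15 ± 0.078 with TGF-β (edgeR adjusted p = 0.131). Those effects differed by 0.97 ± 0.13, and the PDGF-BB one differed from the unstimulated one by 1.03 ± 0.14 (edgeR adjusted p = 9.52e-06 and 2.8e-05). Chst12, which sulfates the same position, ranged from 40 to 79.7 CPM and rose with TGF-β in scramble cells by 0.31 ± 0.08. Chst14, the dermatan 4-O-sulfotransferase, ranged from 18.3 to 45.6 CPM and rose with Itgav siRNA in all 3 media, by 0.59 to 0.66.

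Chst15 adds a second sulfate to residues that already carry one at 4-O. It had 14.9, 13.5 and 16.1 CPM with Itgav siRNA and TGF-β and 17, 16.6 and 16.3 CPM with scramble and TGF-β. The siRNA libraries lay just below the scramble libraries there. With PDGF-BB it had 6.89, 6.81 and 7.14 CPM with Itgav siRNA and 11.1, 13.8 and 12.2 CPM with scramble, and unstimulated 11.8, 10.9 and 10.9 CPM with Itgav siRNA and 9.99, 9.28 and 10.4 CPM with scramble. Under PDGF-BB the siRNA libraries lay below all scramble libraries, and unstimulated they lay above. The siRNA effect on Chst15 was a log2 fold change of -0.83 ± 0.10 with PDGF-BB and 0.17 ± 0.094 unstimulated, a difference of -1.003 ± 0.135 (edgeR adjusted p = 1.84e-07, 0.125 and 2.09e-05). Its exons share 1206 bases with an antisense gene, Gm10584, whose group means were at most 0.163 CPM.

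Ust, the uronyl 2-O-sulfotransferase, had 45.6, 44.7 and 44 CPM with Itgav siRNA and TGF-β, against 20.8, 22.4 and 21.4 CPM with scramble and TGF-β. It had 16.4, 15.9 and 14.5 CPM with Itgav siRNA and PDGF-BB, against 6.31, 6.85 and 6.24 CPM with scramble and PDGF-BB. Unstimulated it had 17.3, 18.1 and 14.5 CPM with Itgav siRNA and 11, 10.4 and 10.3 CPM with scramble. The stimuli moved it in opposite directions in scramble cells, with log2 fold changes of 1.03 ± 0.082 for TGF-β and -0.71 ± 0.093 for PDGF-BB (edgeR adjusted p = 5.2e-10 and 3.05e-06). The siRNA raised it by 1.06 ± 0.073 with TGF-β, 1.27 ± 0.089 with PDGF-BB and 0.66 ± 0.083 unstimulated (edgeR adjusted p = 6.41e-11, 5.87e-11 and 7.49e-07).

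**Figure D4:**
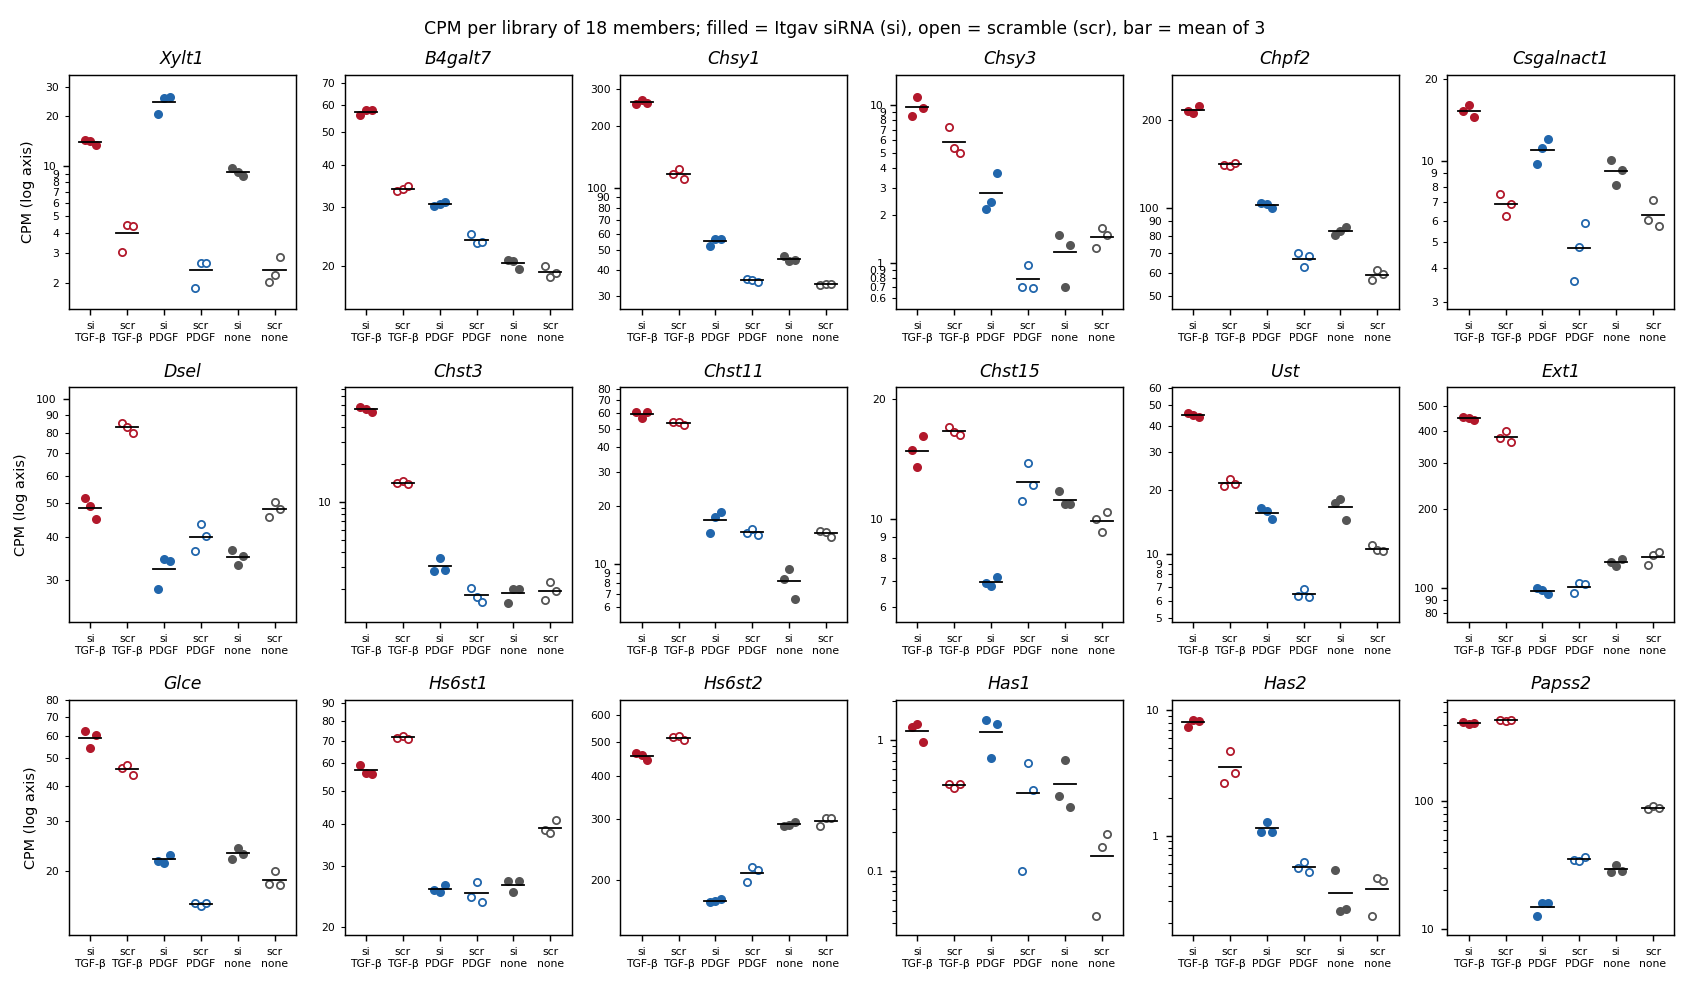
CPM on a log axis in each library for the 18 genes described one by one, with filled points for Itgav siRNA (si), open points for scramble (scr) and a bar at the mean of 3. Chst3 reaches 52.2 to 57.5 CPM with Itgav siRNA and TGF-β, against 13.8 to 14.7 CPM with scramble and TGF-β, and Papss2 is at 405 CPM or more in both TGF-β groups and at 91.6 CPM or less in the other 4.

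Of 5 genes that build the heparan chain, 4 rose with TGF-β in scramble cells, and 1 rose and 4 fell with PDGF-BB (medians 0.18 and -0.28). The 1 that rose was Extl2, and that call ended without any of 5 of the 6 libraries (edgeR adjusted p up to 0.146, without scramble unstimulated replicate 1). Itgav siRNA raised 3 and lowered 1 of the 5 under TGF-β and again under PDGF-BB, and raised 2 and lowered 1 unstimulated. Ext1, a subunit of the heparan polymerase, had 452, 448 and 441 CPM with Itgav siRNA and TGF-β, against 375, 401 and 363 CPM with scramble and TGF-β. It had 99.8, 98.5 and 94.6 CPM with Itgav siRNA and PDGF-BB, 95.4, 104 and 104 CPM with scramble and PDGF-BB, 126, 122 and 129.6 CPM with Itgav siRNA unstimulated and 123, 134 and 138 CPM with scramble unstimulated. The siRNA and scramble libraries overlapped except with TGF-β. TGF-β raised Ext1 2.89-fold in scramble cells, by 1.53 ± 0.049 (edgeR adjusted p = 9.12e-17), whereas its partner Ext2 moved by 0.14 ± 0.043 (edgeR adjusted p = 0.00816). With scramble TGF-β replicate 2 left out, Ext2 did not pass (edgeR adjusted p = 0.0527). PDGF-BB lowered Ext1 in scramble cells, with a log2 fold change of -0.38 ± 0.05 (edgeR adjusted p = 2.78e-06). Ext2 ranged from 104 to 171 CPM over all libraries.

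Glce, the epimerase that makes iduronate in heparan, had 62.1, 54.3 and 60.2 CPM with Itgav siRNA and TGF-β and 46.1, 47.3 and 43.6 CPM with scramble and TGF-β. It had 21.7, 21.3 and 22.8 CPM with Itgav siRNA and PDGF-BB, 15.4, 15 and 15.4 CPM with scramble and PDGF-BB, 22.1, 24.2 and 22.9 CPM with Itgav siRNA unstimulated and 18, 19.9 and 17.8 CPM with scramble unstimulated. In each medium the siRNA libraries were above the scramble libraries. TGF-β raised Glce by 1.30 ± 0.065 in scramble cells (edgeR adjusted p = 2.15e-13), and the siRNA raised it by 0.37 with TGF-β, 0.52 with PDGF-BB and 0.31 unstimulated. Extl3, which starts heparan chains, ranged from 105 to 146 CPM. Extl2, whose product can end a chain at the linkage, ranged from 28.7 to 46.1 CPM and fell with the siRNA under TGF-β, with a log2 fold change of -0.51 ± 0.052 (edgeR adjusted p = 3.18e-08).

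Among 7 genes that sulfate heparan or remove its sulfate, 4 rose and 1 fell with TGF-β in scramble cells, and PDGF-BB raised 1 and lowered 4 (medians 0.39 and -0.39). Itgav siRNA raised 2 and lowered 3 of the 7 under TGF-β, where 24.1% of all genes rose and 24.3% fell. It raised 3 and lowered 1 under PDGF-BB (29.4% and 29.9% of all genes), and raised 2 and lowered 2 unstimulated (25.9% and 27.5%). Several of these calls were small and ended when 1 of the 6 libraries was left out. Under TGF-β the rise of Sulf1 with Itgav siRNA over scramble ended without any of 5 (edgeR adjusted p up to 0.108, without scramble TGF-β replicate 3). With the replicate block Itgav siRNA also raised Sulf1 over scramble under PDGF-BB (edgeR adjusted p = 0.0324, against 0.0701 without it). The siRNA rise of Ndst2 ended without any of 3 under PDGF-BB (up to 0.238, without Itgav siRNA PDGF-BB replicate 2) and any of 5 unstimulated (up to 0.148, without Itgav siRNA unstimulated replicate 1). The unstimulated fall of Sulf2 ended without Itgav siRNA unstimulated replicate 3 (edgeR adjusted p = 0.0501). The 1 that fell with TGF-β over unstimulated in scramble cells was Sulf2, by a log2 fold change of -0.11 ± 0.042. That call ended without any of 5 of the 6 libraries (edgeR adjusted p up to 0.121, without scramble TGF-β replicate 3). Hs6st1, a 6-O-sulfotransferase, had 59.5, 56.4 and 55.8 CPM with Itgav siRNA and TGF-β, against 71.4, 72.4 and 70.9 CPM with scramble and TGF-β. With PDGF-BB it had 25.6, 25.2 and 26.4 CPM with Itgav siRNA and 24.5, 26.9 and 23.6 CPM with scramble, and unstimulated 27.2, 25.3 and 27.2 CPM with Itgav siRNA and 38.3, 37.4 and 40.9 CPM with scramble. The siRNA libraries were below scramble with TGF-β and unstimulated, and the groups overlapped with PDGF-BB. In scramble cells it rose by 0.88 ± 0.054 with TGF-β and fell, with a log2 fold change of -0.64 ± 0.058 with PDGF-BB (edgeR adjusted p = 6.33e-12 and 1.09e-08). The siRNA effect was 0.04 ± 0.06 with PDGF-BB and -0.55 ± 0.058 unstimulated, a difference of 0.59 ± 0.083 (edgeR adjusted p = 0.557, 4.56e-08 and 3.4e-05).

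The related Hs6st2 was the more abundant of the pair per unit of length, at 236 ± 8.74 TPM against 37.9 ± 1.22 TPM for Hs6st1 with scramble and TGF-β (SD, n = 3). It had 466, 459 and 446 CPM with Itgav siRNA and TGF-β, 519, 522 and 508 CPM with scramble and TGF-β, 173, 174 and 177 CPM with Itgav siRNA and PDGF-BB and 197, 218 and 213 CPM with scramble and PDGF-BB. Unstimulated it had 287, 288 and 294 CPM with Itgav siRNA and 286, 302 and 302 CPM with scramble, and these overlapped. It too rose with TGF-β, by 0.80 ± 0.039, and fell, with a log2 fold change of -0.50 ± 0.039 with PDGF-BB in scramble cells (edgeR adjusted p = 1.27e-13 and 1.02e-09).

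Hs2st1, the heparan 2-O-sulfotransferase, ranged from 72.7 to 108 CPM in Itgav siRNA cells and from 50.4 to 77.5 CPM in scramble cells. It rose with the siRNA in all 3 media, by 0.95 ± 0.046 with TGF-β, 0.40 ± 0.044 with PDGF-BB and 0.53 ± 0.046 unstimulated (edgeR adjusted p = 1.47e-13, 8.24e-08 and 2.26e-09). In scramble cells it was raised by PDGF-BB, by 0.55 ± 0.046, with 0.07 ± 0.047 for TGF-β (edgeR adjusted p = 2.39e-09 and 0.222). The N-deacetylase and N-sulfotransferase genes Ndst1 and Ndst2 ranged from 99.5 to 184 and from 19.4 to 28.1 CPM. Sulf1, which strips 6-O-sulfate from heparan outside the cell, rose in scramble cells by 0.42 ± 0.05 with TGF-β and fell, with a log2 fold change of -0.51 ± 0.051, with PDGF-BB (edgeR adjusted p = 4.1e-07 and 4.95e-08). Sulf2, of the same activity, had 296, 287 and 286 CPM with Itgav siRNA and TGF-β and 412, 425 and 403 CPM with scramble and TGF-β, a change of -0.51 ± 0.042 (edgeR adjusted p = 1.08e-09). Its exons share 154 bases with Ncoa3 on the opposite strand, which averaged 25.4 CPM with Itgav siRNA and TGF-β and 17.9 CPM with scramble and TGF-β.

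Of 3 hyaluronan synthases, 2 rose with TGF-β in scramble cells, and none passed the test with PDGF-BB there. Itgav siRNA raised 2 under TGF-β, raised 2 and lowered 1 under PDGF-BB, and raised 1 unstimulated. Has2 (chr15:56665627-56694539) had 7.43, 8.39 and 8.24 CPM with Itgav siRNA and TGF-β, against 2.61, 4.73 and 3.18 CPM with scramble and TGF-β. With PDGF-BB it had 1.08, 1.29 and 1.07 CPM with Itgav siRNA and 0.555, 0.618 and 0.509 CPM with scramble, and unstimulated 0.537, 0.251 and 0.259 CPM with Itgav siRNA and 0.229, 0.457 and 0.436 CPM with scramble, which is at most 10 counts in a library. The siRNA and scramble libraries were apart under either stimulus and overlapped unstimulated. TGF-β raised Has2 9.35-fold in scramble cells, by 3.23 ± 0.30, and 22.8-fold in Itgav siRNA cells, by 4.51 ± 0.28 (edgeR adjusted p = 5.45e-09 and 5.34e-12). Itgav siRNA raised it by 1.19 ± 0.20 with TGF-β and by 1.03 ± 0.31 with PDGF-BB (edgeR adjusted p = 4.75e-05 and 0.00774), and gave -0.10 ± 0.43 unstimulated. The difference between the TGF-β and unstimulated siRNA effects, 1.28 ± 0.48, missed the threshold (edgeR adjusted p = 0.0588), and passed it without Itgav siRNA unstimulated replicate 1, scramble TGF-β replicate 2 or scramble unstimulated replicate 1 (edgeR adjusted p = 0.0234, 0.0163 and 0.0331).

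Has1 had 22, 24 and 18 counts with Itgav siRNA and TGF-β, 8, 8 and 8 counts with scramble and TGF-β, 29, 16 and 25 counts with Itgav siRNA and PDGF-BB and 2, 13 and 9 counts with scramble and PDGF-BB. Unstimulated it had 7, 14 and 6 counts with Itgav siRNA and 1, 3 and 4 counts with scramble. The siRNA libraries were above the scramble libraries of the same medium in all 3 media, at levels of 0.311 to 1.42 CPM for Itgav siRNA and 0.0458 to 0.669 CPM for scramble. The rise with the siRNA was 1.37 ± 0.46 with TGF-β, 1.54 ± 0.46 with PDGF-BB and 1.80 ± 0.63 unstimulated (edgeR adjusted p = 0.0182, 0.00654 and 0.0198). The TGF-β call ended without Itgav siRNA TGF-β replicate 2 or scramble TGF-β replicate 2 (edgeR adjusted p = 0.0546 and 0.0523), and the unstimulated one without Itgav siRNA unstimulated replicate 2 or scramble unstimulated replicate 1 (edgeR adjusted p = 0.122 and 0.0932). Its rise with TGF-β in scramble cells, 1.76 ± 0.64 (edgeR adjusted p = 0.0274), ended without scramble TGF-β replicate 1 or 3 or scramble unstimulated replicate 1 (edgeR adjusted p = 0.0576, 0.0526 and 0.117). Has3 ranged from 0.831 to 2.13 CPM and fell with the siRNA under PDGF-BB, with a log2 fold change of -0.84 ± 0.25 (edgeR adjusted p = 0.00548). Has3 shares 352 exon bases with Chtf8 on the opposite strand, whose group means were 72.6 to 106 CPM.

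Among 3 precursor genes, the widest range was that of Papss2 (chr19:32595790-32667187), which makes the sulfate donor PAPS. It had 419, 405 and 414 CPM with Itgav siRNA and TGF-β and 434, 428 and 434 CPM with scramble and TGF-β. With PDGF-BB it had 12.7, 15.8 and 15.9 CPM with Itgav siRNA, against 34.6, 34.1 and 36.5 CPM with scramble, and unstimulated 27.8, 31.8 and 28.6 CPM with Itgav siRNA, against 87.2, 91.6 and 88.9 CPM with scramble. The siRNA libraries lay below scramble in every medium, narrowly with TGF-β and by a wide margin otherwise. TGF-β raised Papss2 4.84-fold in scramble cells, by 2.28 ± 0.055, and 14-fold in Itgav siRNA cells, by 3.81 ± 0.061 (edgeR adjusted p = 7.39e-19 and 2.9e-22). PDGF-BB brought it to 0.394 of the unstimulated level in scramble cells, a log2 fold change of -1.35 ± 0.059 (edgeR adjusted p = 6.79e-14). The siRNA effect was -0.07 ± 0.051 with TGF-β, -1.25 ± 0.069 with PDGF-BB and -1.60 ± 0.06 unstimulated (edgeR adjusted p = 0.308, 1.07e-12 and 2.59e-15). The effect with TGF-β differed from the unstimulated one by 1.53 ± 0.079, or 2.89-fold (edgeR adjusted p = 7.56e-12).

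The second PAPS synthase, Papss1, did not share the TGF-β rise. It ranged from 40.4 to 71.8 CPM in Itgav siRNA cells and from 67.4 to 112 CPM in scramble cells, and fell with the siRNA, with log2 fold changes of -0.57 ± 0.05 with TGF-β, -0.74 ± 0.051 with PDGF-BB and -0.61 ± 0.049 unstimulated (edgeR adjusted p = 3.26e-09, 5.02e-11 and 6.31e-10). With TGF-β in scramble cells it changed by -0.18 ± 0.048 (edgeR adjusted p = 0.00333). Ugdh ranged from 97.1 to 171 CPM, fell with TGF-β in scramble cells, with a log2 fold change of -0.43 ± 0.047, and rose with PDGF-BB by 0.20 ± 0.046 (edgeR adjusted p = 8.85e-08 and 0.00181).

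Genes around the pathway were taken from lists of the same kind, and their counts are to be read against the shares of all genes given above, from 16.9% to 29.9% in 1 direction. Of 17 that supply nucleotide sugars and sulfate, 14 rose and 2 fell with TGF-β in scramble cells, the median log2 fold change being 0.40, and PDGF-BB raised 4 and lowered 5. Pgm3 and Gfpt1, enzymes of UDP-N-acetylglucosamine synthesis, rose by 0.97 ± 0.065 and 0.85 ± 0.059, and Slc26a2, a sulfate transporter, by 0.95 ± 0.071 (edgeR adjusted p = 2.71e-11, 5.7e-11 and 1.98e-10). With Itgav siRNA 8 rose and 6 fell under TGF-β, 4 rose and 6 fell under PDGF-BB, and 4 rose and 10 fell unstimulated. Gfpt2, a second enzyme of the UDP-N-acetylglucosamine route, rose with the siRNA by 1.25 ± 0.10 under TGF-β and by 1.06 ± 0.11 under PDGF-BB (edgeR adjusted p = 1.32e-09 and 5.56e-08). Bpnt2, the Golgi phosphatase that clears the by-product of sulfation, fell in the unstimulated comparison, with a log2 fold change of -1.04 ± 0.058 (edgeR adjusted p = 1.3e-12).

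Core proteins were split. Of 21 proteoglycan core genes tested, out of 25 in the table, 11 rose and 8 fell with TGF-β in scramble cells, and 6 rose and 9 fell with PDGF-BB, with medians of 0.39 and -0.16. Acan, the core of aggrecan, had 110.1, 114 and 98.5 CPM with scramble and TGF-β and 2.11, 2.44 and 1.36 CPM in scramble unstimulated cells, a change of 5.77 ± 0.18 (edgeR adjusted p = 4.21e-17). Cspg4 rose by 1.47 ± 0.054 and Dcn, the core of decorin, had a log2 fold change of -1.86 ± 0.089 (edgeR adjusted p = 1.01e-15 and 1.03e-13). With PDGF-BB the glypican Gpc4 and the biglycan core Bgn fell, with log2 fold changes of -0.91 ± 0.044 and -0.58 ± 0.033 (edgeR adjusted p = 3.89e-13 and 3.83e-12). Gpc1, a heparan sulfate core on the cell surface, rose with Itgav siRNA by 1.87 ± 0.075 with TGF-β, 1.71 ± 0.078 with PDGF-BB and 1.71 ± 0.085 unstimulated (edgeR adjusted p = 8.57e-15, 4.84e-14 and 2.49e-13). The siRNA counts of the list were 8 higher and 8 lower with TGF-β, 10 and 6 with PDGF-BB, and 9 and 8 unstimulated.

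Of 14 genes tested that bind or break down hyaluronan, out of 19 in the table, 3 rose and 7 fell with TGF-β in scramble cells, and 6 rose and 2 fell with PDGF-BB. Itgav siRNA raised 6 and lowered 2 under TGF-β, raised 7 and lowered 4 under PDGF-BB, and raised 6 and lowered 5 unstimulated. The median was -0.61 with TGF-β and 0.23 with PDGF-BB. Hmmr, a hyaluronan-binding protein of the mitotic spindle, had a log2 fold change of -1.42 ± 0.077 with TGF-β (edgeR adjusted p = 7.95e-13). Cd44, the main hyaluronan receptor, rose with TGF-β by 0.69 ± 0.042 and with PDGF-BB by 1.34 ± 0.042 (edgeR adjusted p = 5.67e-12 and 2.99e-16). Cemip, needed for hyaluronan breakdown, had 355, 409 and 407 CPM with Itgav siRNA and PDGF-BB, against 751, 849 and 779.7 CPM with scramble and PDGF-BB, a change of -1.02 ± 0.055 (edgeR adjusted p = 6.18e-13). Of 13 lysosomal enzymes that degrade these chains, 4 rose and 5 fell with TGF-β in scramble cells, and 3 rose and 5 fell with PDGF-BB. Itgav siRNA raised 10 and lowered 2 with TGF-β, raised 10 and lowered 2 with PDGF-BB, and raised 9 and lowered 3 unstimulated. Ids, which removes 2-O-sulfate, was among the lowered, with log2 fold changes of -1.39 ± 0.057 with TGF-β, -1.15 ± 0.057 with PDGF-BB and -1.44 ± 0.056 unstimulated (edgeR adjusted p = 1.06e-14, 1.69e-13 and 4.76e-15). Hpse, the heparanase, rose by 2.89 ± 0.10 with PDGF-BB and by 2.06 ± 0.10 unstimulated (edgeR adjusted p = 6.01e-16 and 1.72e-13).

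Other sulfotransferases and chain genes, of which 10 of 16 were tested, gave 1 higher and 6 lower with TGF-β in scramble cells, and 2 higher and 4 lower with PDGF-BB. Itgav siRNA raised 3 and lowered 1 under TGF-β, where 24.1% of all genes rose, raised 3 and lowered none under PDGF-BB, where 29.4% rose, and raised 1 and lowered none unstimulated, where 25.9% rose (edgeR). Chst1, a keratan sulfotransferase, had 3.6, 2.85 and 3.12 CPM with TGF-β, 73.4, 58.3 and 57.5 CPM with PDGF-BB and 17.6, 15.4 and 14.1 CPM unstimulated in scramble cells. Its log2 fold change was -2.30 ± 0.14 with TGF-β and 2.00 ± 0.094 with PDGF-BB (edgeR adjusted p = 4.55e-12 and 1.97e-13). Chst2, another sulfotransferase, rose with Itgav siRNA under TGF-β by 1.68 ± 0.10, and that effect exceeded the unstimulated one by 1.54 ± 0.16 (edgeR adjusted p = 9.47e-12 and 3.24e-07). Pxylp1, a phosphatase of the linkage xylose, rose with Itgav siRNA in all 3 media, by 1.08 with TGF-β, 0.55 with PDGF-BB and 0.29 unstimulated.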

How the data were processed

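Bulk RNA sequencing gave 18 libraries in 6 groups of 3. The authors deposited estimated counts per gene and per transcript. Reads were processed with HISAT2 2.2.1 and StringTie 2.1.6 on mm10, per the submitters' processing notes; their settings are not stated. Of nonzero gene values 76.2% were whole, and all were rounded to whole numbers. One edgeR 4.0.16 quasi-likelihood fit covered all libraries (TMM scaling, filterByExpr with a minimum count of 10, 12 residual degrees of freedom, biological coefficient of variation 6.01%), with Benjamini-Hochberg adjustment over 15832 genes in each of 10 comparisons. SE is the log2 fold change divided by the root of F. TPM used transcript counts and GENCODE M21 lengths, which covered 98.86% of counts. Genes described one by one were members called with at least 2-fold in a comparison of a pair of groups, or with a difference between siRNA effects of at least 0.7. Members, lists and rules were chosen with earlier results of these data known. For other lists, up to 3 called genes with the smallest p in a comparison were named. The labels number the replicates but tie no number to a batch. By the correlation of deviations from group means, same-numbered libraries correlated over 0.1 in 3 of 3 pairs between Itgav siRNA and scramble with PDGF-BB (0.39, 0.19 and 0.17) and between scramble with PDGF-BB and scramble unstimulated (0.35, 0.15 and 0.13). Between Itgav siRNA with PDGF-BB and scramble unstimulated the values were 0.24, 0.13 and 0.058. The fit was tested on simulated data. Alternatives were DESeq2 1.42.0, its size factors, other filters, the compared groups alone, a replicate block and leaving out each library.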

Additional observations from a re-analysis of the deposited data

Results flagged for a closer look

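The effect of Itgav siRNA differed between a stimulated and the unstimulated medium for 33 gene and stimulus pairs, by edgeR's test of the difference itself (adjusted p under 0.05 over all genes). Of all genes tested, 12.2% were more positive and 11% more negative with TGF-β, and 9.51% and 9.32% with PDGF-BB. Values are log2 differences, the siRNA effect under the stimulus minus the unstimulated siRNA effect, and the unstimulated libraries are shared by both sets. A positive difference is not always a larger rise. For Papss2, Chst11 and Hs6st1 it was an unstimulated fall with the siRNA that was smaller or absent under the stimulus.

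With TGF-β the difference was 2.01 for Chst3, 1.53 for Papss2, 1.07 for Chsy3, 0.97 for Chst11, 0.74 for Chsy1, 0.68 for B4galt7 and 0.62 for Csgalnact1. It was 0.42 for Hs2st1, 0.40 for Ust, 0.30 for Ext1 and 0.23 for Hs6st1. Negative differences were -0.31 for Dsel, -0.37 for Extl2, -0.38 for Sulf2 and -0.68 for Chst7.

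With PDGF-BB the difference was 2.14 for Chsy3, 1.37 for Xylt1, 1.03 for Chst11, 0.84 for Chst3, 0.66 for Csgalnact1, 0.62 for Ust and 0.59 for Hs6st1. Smaller ones were 0.42 for Fam20b, 0.41 for Dse, 0.35 for Ndst1, 0.35 for Papss2, 0.27 for B4galt7, 0.22 for Chsy1, 0.21 for Ugdh and 0.20 for Ext2. Negative ones were -0.23 for Hs6st2, -0.36 for Chst12 and -1.003 for Chst15.

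Some of these calls ended when 1 of the 12 libraries behind them was left out. With TGF-β this held for 6 libraries for Chsy3 (edgeR adjusted p up to 0.11, without Itgav siRNA unstimulated replicate 2), 4 for Csgalnact1 (0.0876, scramble unstimulated replicate 2), 8 for Hs6st1 (0.111, scramble unstimulated replicate 3), 8 for Dsel (0.11, Itgav siRNA TGF-β replicate 3) and 9 for Chst7 (0.094, Itgav siRNA TGF-β replicate 2). With PDGF-BB it held for 2 libraries for B4galt7 (0.0564, Itgav siRNA unstimulated replicate 3), 2 for Chst3 (0.0631, scramble unstimulated replicate 2), 7 for Chsy1 (0.0844, Itgav siRNA PDGF-BB replicate 2) and 7 for Chst12 (0.12, scramble PDGF-BB replicate 1). It also held for 5 for Csgalnact1 (0.0845), 5 for Ext2 (0.0903) and 6 for Ugdh (0.0906), highest without scramble unstimulated replicate 2 for each.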

How the results depend on the processing

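Across DESeq2, its size factors within edgeR, other low-count filters, fits of the compared groups alone, the replicate block and each left-out library, the number of members called stayed within 1.5 times the reported count in all 10 comparisons. It was 28 to 31 for TGF-β and 20 to 26 for PDGF-BB over unstimulated scramble cells. For Itgav siRNA it was 25 to 29 with TGF-β, 25 to 32 with PDGF-BB and 20 to 24 unstimulated, and for the differences between siRNA effects 10 to 16 with TGF-β and 12 to 20 with PDGF-BB. No member's call reversed direction. Single calls near the threshold did change, 215 times ending and 45 times appearing over the members, comparisons and alternatives, mostly for changes under 1.5-fold and otherwise for Has1, Has2, Has3, Chsy3, Csgalnact1, Chst3 and Chst7.

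Same-numbered libraries correlated over 0.1 throughout in 2 pairs of groups, both with PDGF-BB. Between Itgav siRNA with PDGF-BB and scramble unstimulated they were above 0 throughout (0.24, 0.13 and 0.058), and in the other pairs of groups not throughout. Over 45 same-numbered pairs the correlation of deviations ran from -0.28 to 0.39, 19 were over 0.1, and 9 of 18 libraries correlated best with their own number. Beside the blocked calls of Chst12, B3gat3 and Sulf1 given with their groups, the replicate block added a call for Csgalnact2 with Itgav siRNA unstimulated (edgeR adjusted p = 0.0405) and for Has2 in the difference of siRNA effects with TGF-β (0.0473), and changed no other member's call. With the replicate block the fit called 31 members for TGF-β and 26 for PDGF-BB in scramble cells, 28, 31 and 24 for Itgav siRNA with TGF-β, with PDGF-BB and unstimulated, and 16 and 18 for the differences between siRNA effects. Depth limits Has1 most, with 1 to 29 counts a library.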
